A study of Drosophila melanogaster with 12 samples.

Results

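Cytochrome P450 genes of Drosophila melanogaster were followed through 2 RNA sequencing experiments on larval body wall. Members were the rows of the deposited tables with a gene name made of Cyp, a family number, a subfamily letter and a gene number, such as Cyp6a2. The rule found 79 of the 13650 rows in each table, naming 80 different P450 genes, all of which are current RefSeq symbols. P450 genes known by mutant names, such as phm and shd, are outside the rule and are given further on as a list of their own.

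Cytochrome P450 enzymes are heme proteins that insert an oxygen atom into small, mostly fat-soluble molecules. Most insect P450s sit in the endoplasmic reticulum and take electrons from NADPH-cytochrome P450 reductase, whereas those of the Cyp12 family and a few others work in mitochondria with adrenodoxin-like ferredoxins. Members of the Cyp6, Cyp9, Cyp12 and Cyp28 families are best known for breaking down plant compounds and insecticides, many Cyp4 enzymes act on fatty acids and hydrocarbons, and single members make or destroy hormones. In larvae the fat body, midgut and Malpighian tubules carry much of this activity.

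The 12 libraries, 3 in each of 4 groups, came from the carcass, meaning muscle and epidermis with the gut dissected away, of late foraging larvae in their last instar. The smox group had the genotype Smox(Smad2)F4/Y, a mutant copy of the gene for the Activin-branch Smad opposite the Y, which makes these larvae male. It was set against w1118, a white-eyed stock that stands in for wild type and has no stated sex, and both ate yeast paste on apple juice plates without further treatment. The baboACT group had the genotype tub-Gal80ts/+;MhcGal4/baboACT and expressed activated Baboon, the Activin receptor, from the muscle driver MhcGal4. It was set against MhcGal4 larvae of the genotype tub-Gal80ts/+;MhcGal4/+. Both of these groups carried the temperature-sensitive Gal4 inhibitor Gal80, ate vial food and spent 12 h at 30 °C before RNA extraction. The driver acts in muscle, whereas the carcass also holds other tissues.

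The tables hold 1 FPKM (fragments scaled to transcript length and to the number of mapped fragments) per gene and group, and 0 columns of single libraries. Values below therefore have no SD, and sequencing depth is unknown. A gene is said to have risen, fallen or been called where the authors' deposited table gives it a q below 0.05. Called genes whose values are given without a q had 0.000152 in the smox table or 0.000217 in the baboACT table, the lowest q there. No label ties the 3 libraries of a group to different larvae, so the spread behind q may be technical in part. Fold changes are log2 ratios of smox over w1118 and of baboACT over MhcGal4, and levels are compared within an experiment. A row was taken as measured where the authors tested it, both FPKM were above 0, their mean was at least 1 and the row name occurred once. Smox itself stood at 1.40 FPKM in smox and 23.9 FPKM in w1118 (log2 fold change -4.10). The babo gene stood at 15.6 FPKM in baboACT and 13.2 FPKM in MhcGal4 (0.23, q = 0.00424 in the authors' deposited table).

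Of the 79 P450 rows, 46 were measured in the smox experiment, 48 in the baboACT experiment, 41 in both and 53 in at least 1. The other 26 rows were under 1 FPKM in all 4 groups, and 5 of them are listed at 0 throughout. The highest of these 26 was Cyp317a1, with 0.440 FPKM in smox, 0.950 in w1118, 0.662 in baboACT and 0.367 in MhcGal4. They also include Cyp4g15, a gene of the nervous system, at 0.346 to 0.773 FPKM, Cyp303a1, needed for sensory bristles, at 0.578 to 0.766 FPKM, and Cyp6a20, studied for its effect on male aggression, at 0.0917 to 0.558 FPKM. Cyp6a17, which affects temperature preference, ranged from 0.203 to 0.675 FPKM. The near-identical copies Cyp12d1-d and Cyp12d1-p, between which reads cannot be told apart reliably, stood at no more than 0.326 FPKM. Cyp12d1-p has a second row on the unplaced sequence Uextra, listed at 0.

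The P450 transcript pool was dominated by Cyp4g1. This oenocyte enzyme carries out the last step of cuticular hydrocarbon synthesis, which waterproofs the larva. Cyp4g1 held 47.2% of the summed P450 FPKM in smox, 53.0% in w1118, 58.3% in baboACT and 63.9% in MhcGal4. Second place went to Cyp304a1 in smox (169 FPKM), Cyp313b1 in w1118 (68.9), Cyp313b1 in baboACT (57.5) and Cyp9c1 in MhcGal4 (76.7). Summed over all 79 rows, P450 FPKM came to 2013 in smox and 1179 in w1118, or 0.209% and 0.122% of all FPKM. The sum was 1234 in baboACT and 1670 in MhcGal4, or 0.152% and 0.221%. With Cyp4g1 left out the sums were 1063 in smox and 554 in w1118, and 514 in baboACT and 602 in MhcGal4. With Cyp304a1 left out as well, smox stood at 893 and w1118 at 553. The smox pool was thus the larger of its pair with or without these 2 genes, and the baboACT pool the smaller of its pair.

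**Figure D1:**
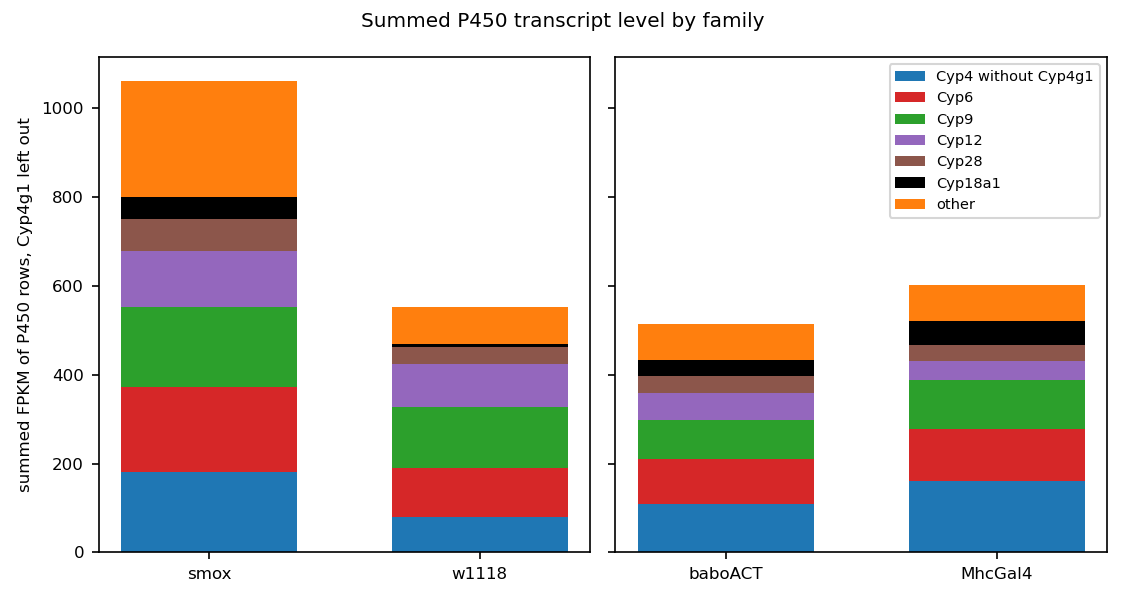
Summed FPKM of the P450 rows by family (stacked colors) in each group, with Cyp4g1 left out. The bars reach 1063 in smox and 554 in w1118, and 514 in baboACT and 602 in MhcGal4; each pair was tabulated separately, so heights compare within a panel.

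In smox carcasses most measured P450 transcripts were higher than in w1118. Of 46 measured members 27 rose and 8 fell. That is 58.7% rising and 17.4% falling, beside 18.4% rising and 39.8% falling among all 7977 measured rows. The same all-row shares stand beside the smox counts by family given below. The share called in either direction was 58.1% over all rows (9.09% with a log2 change of at least 1), and 35 of the 46 members were called (19 with such a change). The median log2 fold change of the measured members was 0.66, beside -0.14 over all measured rows. Rises of at least 1 on the log2 scale were made by 18 of the 46, beside 4.48% of all measured rows, and falls of that size by 1, beside 4.61%. Among the 46, 4 had less than 1 FPKM in w1118 and passed the floor through smox, and 3 had less than 1 FPKM in smox and passed through w1118. Of the large rises, Cyp6a2, Cyp311a1 and the row Cyp309a1,Cyp309a2 passed through smox. Cyp4d20, the large fall, passed through w1118.

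**Figure D2:**
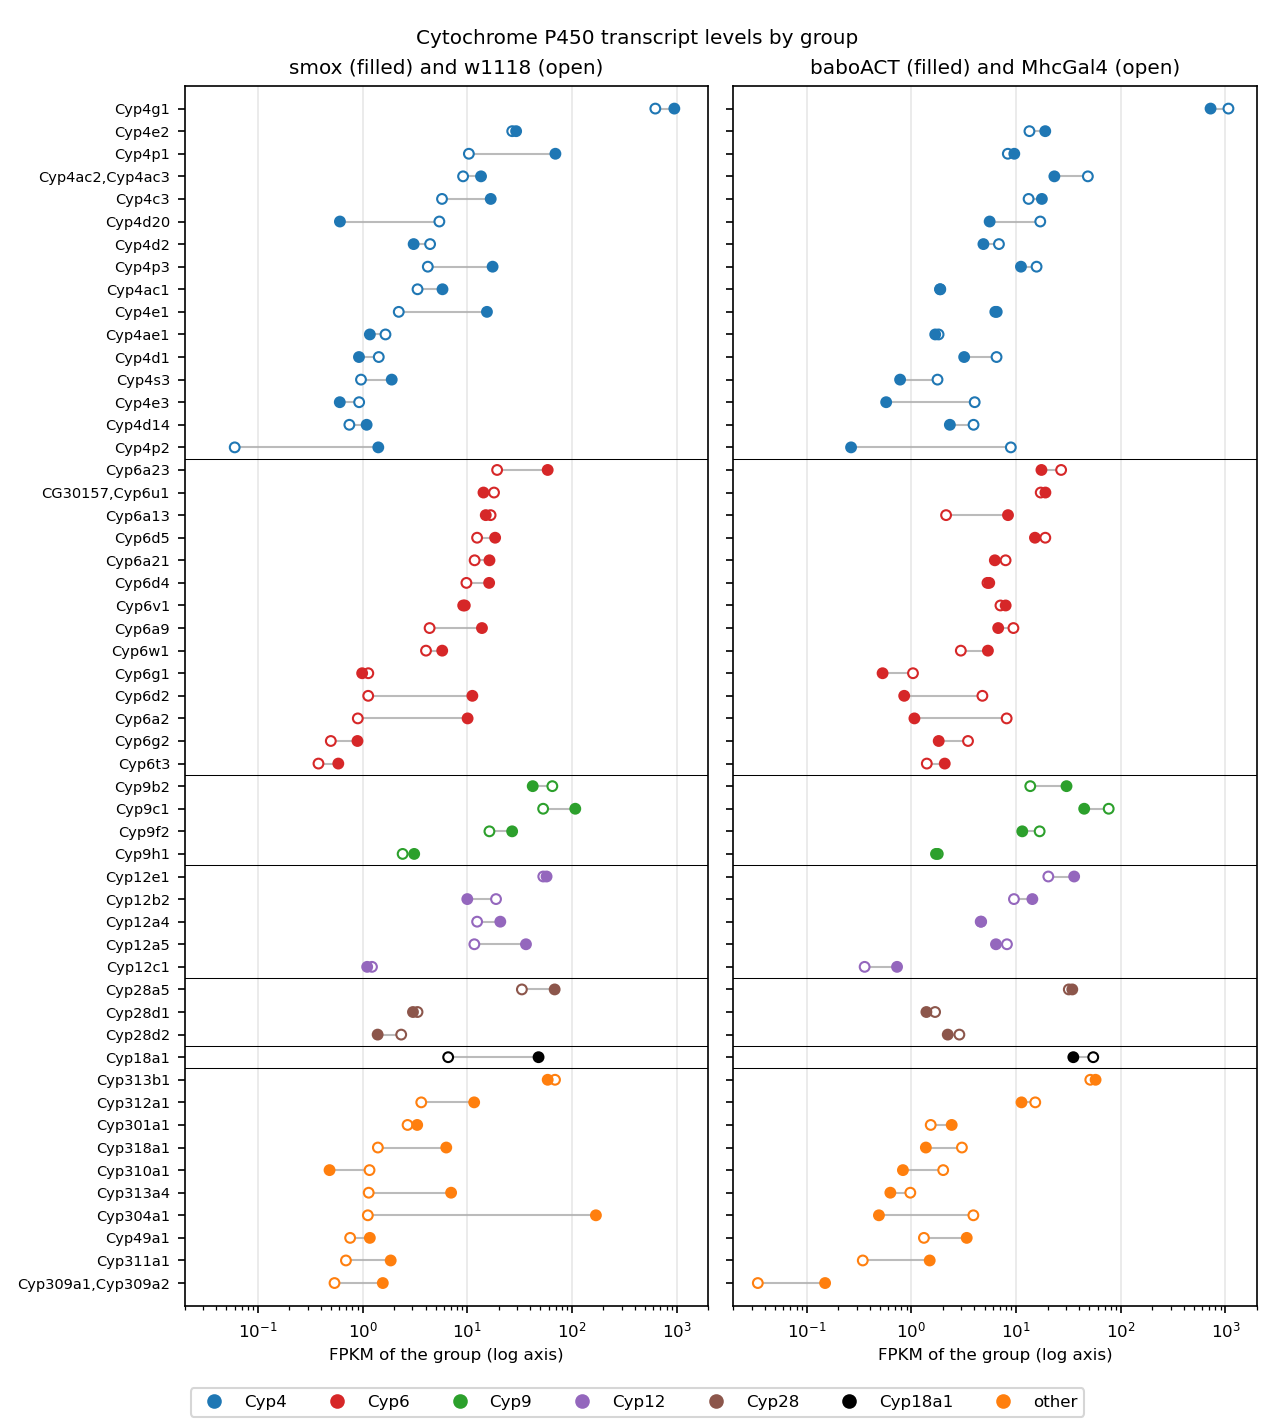
FPKM (log axis) of the 53 P450 rows measured in at least 1 experiment, by family, in smox (filled) and w1118 (open) on the left and baboACT (filled) and MhcGal4 (open) on the right. Filled points lie to the right of open ones for most rows on the left (27 of 46 measured rows rose) and to the left for many on the right (23 of 48 fell).

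Among Cyp4 genes 7 of 13 measured rows rose and 3 fell in smox, of 21 rows in the family. Cyp4g1 stood at 950 FPKM in smox and 626 in w1118, a log2 fold change of 0.60. The largest rises were in Cyp4e1, with 15.4 FPKM in smox and 2.22 in w1118 (2.80), and in Cyp4p1, with 69.5 FPKM in smox and 10.4 in w1118 (2.75). Cyp4p3 had 17.5 FPKM in smox and 4.20 in w1118 (2.06). The 3 Cyp4p genes share 1 locus in the tables, on 2R from 5115286 to 5134752, and no source used here gives how reads were divided between them. Cyp4p2 is listed at 1.41 FPKM in smox and 0.0601 in w1118, under the floor and not called in the authors' deposited table (q = 0.113). Cyp4c3 rose to 16.8 FPKM in smox, against 5.74 in w1118 (1.55). Cyp4s3 had 1.90 FPKM in smox and 0.967 in w1118 (0.98, q = 0.000558 in the authors' deposited table). Cyp4e2 was almost level, with 29.3 FPKM in smox and 26.9 in w1118 (0.12, q = 0.028 in the authors' deposited table).

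The falls among Cyp4 genes were in 1 subfamily. All 3 measured Cyp4d genes fell in smox. Cyp4d14, whose mean was under the floor, went the other way without a call, with 1.09 FPKM in smox and 0.749 in w1118 (0.55). The shared direction thus holds only for the Cyp4d rows that passed the floor. Cyp4d20 had 0.608 FPKM in smox and 5.42 in w1118 (-3.15, q = 0.0213 in the authors' deposited table). Cyp4d1 had 0.924 FPKM in smox and 1.43 in w1118 (-0.63, q = 0.0383 in the authors' deposited table). Cyp4d2 had 3.08 FPKM in smox and 4.42 in w1118 (-0.52, q = 0.002 in the authors' deposited table). These are low transcripts, and with a pseudocount of 1 FPKM the log2 fold change of Cyp4d20 was -2.00. The 3 measured Cyp4 rows that were not called lay close to the threshold: Cyp4ae1 at q = 0.0504, Cyp4ac2,Cyp4ac3 at q = 0.052 and Cyp4ac1 at q = 0.0664 in the authors' deposited table.

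Cyp6 genes, the largest group of detoxifying P450s, rose in 8 of 12 measured cases and fell in 1 in smox, of 21 rows. Cyp6a2, an enzyme known from insecticide-resistant strains and inducible by phenobarbital, had 10.1 FPKM in smox and 0.901 in w1118, a log2 fold change of 3.48. Cyp6d2 had 11.2 FPKM in smox and 1.13 in w1118 (3.30). Cyp6a9 had 13.8 FPKM in smox and 4.37 in w1118 (1.66), and Cyp6a23, the most abundant Cyp6 transcript, had 58.6 FPKM in smox and 19.3 in w1118 (1.60). Smaller rises were those of Cyp6d4 (0.72), Cyp6d5 (0.57, q = 0.00524 in the authors' deposited table), Cyp6w1 (0.51) and Cyp6a21 (0.47). The row CG30157,Cyp6u1, which pools overlapping genes, fell to 14.3 FPKM in smox, against 18.0 in w1118 (-0.33). Cyp6g1, known for DDT resistance when overexpressed, was not called, with 0.992 FPKM in smox and 1.14 in w1118 (q = 0.561 in the authors' deposited table). Cyp6v1 was not called either, with 9.48 FPKM in smox and 9.15 in w1118 (q = 0.585 in the authors' deposited table). Nor was a call made for Cyp6a13, with 15.0 FPKM in smox and 16.7 in w1118 (q = 0.0649 in the authors' deposited table).

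Cyp9 and Cyp28 genes were few and divided in smox. Cyp9c1 had 108 FPKM in smox and 53.1 in w1118 (log2 fold change 1.02), and Cyp9f2 had 26.8 FPKM in smox and 16.3 in w1118 (0.72). Cyp9b2, the most abundant Cyp9 transcript in w1118, fell to 42.2 FPKM in smox, against 64.96 in w1118 (-0.62). Cyp9h1 was not called (3.11 FPKM in smox and 2.42 in w1118, q = 0.0634 in the authors' deposited table). Cyp28a5 had 68.4 FPKM in smox and 33.2 in w1118 (1.04). Cyp28d2 fell to 1.39 FPKM in smox, against 2.34 in w1118 (-0.75, q = 0.00429 in the authors' deposited table), and Cyp28d1 was not called (3.03 FPKM in smox and 3.35 in w1118).

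Mitochondrial P450s showed no common direction in smox. In the Cyp12 family 2 of 5 measured genes rose and 1 fell. Cyp12a5 had 36.4 FPKM in smox and 11.7 in w1118 (1.64), and Cyp12a4, known for resistance to the insecticide lufenuron, had 20.7 FPKM in smox and 12.4 in w1118 (0.74). Cyp12b2 fell to 10.01 FPKM in smox, against 18.8 in w1118 (-0.91). Cyp12e1, the most abundant of them, had 57.2 FPKM in smox and 53.2 in w1118 and was not called in the authors' deposited table (q = 0.187). Cyp12c1, with 1.11 FPKM in smox and 1.23 in w1118, was not called. Cyp301a1, a mitochondrial P450 needed for the adult cuticle, was not called either (3.33 FPKM in smox and 2.69 in w1118, q = 0.0926 in the authors' deposited table). Over the 6 measured mitochondrial rows the median was 0.21.

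Cyp18a1, the 26-hydroxylase that inactivates the molting hormone 20-hydroxyecdysone, had 48.0 FPKM in smox and 6.57 in w1118, a 7.30-fold difference (log2 fold change 2.87). The tables place its locus on chromosome X, bases 18582570 to 18586778. In the same experiment the ecdysone receptor gene EcR had 23.0 FPKM in smox and 49.7 in w1118, a fall of 1.11 on the log2 scale. The 6 glue genes of the salivary gland, which ecdysone switches on late in larval life, summed to 31.4 FPKM in smox and 495 in w1118, and the 5 measured ones all fell. The part of developmental stage in these values was not tested.

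Of the remaining small families 6 of 8 measured rows rose in smox and 1 fell. Cyp304a1, on 3R from 8775764 to 8793434 in the tables, had 169 FPKM in smox and 1.12 in w1118, a 151-fold difference (log2 fold change 7.24). It was the largest change among the measured members in smox. Cyp313a4 had 7.01 FPKM in smox and 1.15 in w1118 (2.61), Cyp318a1 had 6.30 FPKM in smox and 1.40 in w1118 (2.17), and Cyp312a1 had 11.6 FPKM in smox and 3.64 in w1118 (1.68). The row Cyp309a1,Cyp309a2, in which reads of both genes cannot be told apart, had 1.56 FPKM in smox and 0.540 in w1118 (1.53, q = 0.000292 in the authors' deposited table). Cyp311a1 had 1.86 FPKM in smox and 0.694 in w1118 (1.42). Cyp313b1 fell to 58.7 FPKM in smox, against 68.9 in w1118 (-0.23, q = 0.00176 in the authors' deposited table), and this fall shrank to -0.09 when fold changes were centered on the median of all measured rows.

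With activated Baboon in muscle many measured P450 transcripts were lower than in MhcGal4. Of 48 measured members 23 fell and 10 rose. That is 47.9% falling and 20.8% rising, beside 14.7% falling and 29.1% rising among all 8018 measured rows. The same all-row shares stand beside the baboACT counts by family given below. The share called in either direction was 43.8% over all rows (6.31% with a log2 change of at least 1), and 33 of the 48 members were called (13 with such a change). The median log2 fold change of the measured members was -0.34, beside 0.08 over all measured rows. Falls of at least 1 on the log2 scale were made by 10 of the 48, beside 1.73% of all measured rows, and rises of that size by 3, beside 4.58%. Among the 48, 6 had less than 1 FPKM in baboACT and passed the floor through MhcGal4, and 0 passed the other way. Cyp4p2, Cyp4e3, Cyp4s3, Cyp6d2 and Cyp310a1, all among the 10 large falls, were such rows, so these falls entered through the group where they are high.

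Cyp4 genes fell in 10 of 16 measured cases and rose in 2 with activated Baboon. Cyp4g1 had 720 FPKM in baboACT and 1067 in MhcGal4 (log2 fold change -0.57). Cyp4p2 had 0.266 FPKM in baboACT and 8.91 in MhcGal4 (-5.07, q = 0.000599 in the authors' deposited table), while its neighbor Cyp4p1 had 9.62 FPKM in baboACT and 8.34 in MhcGal4 and was not called in the authors' deposited table (q = 0.431). Cyp4e3 fell to 0.575 FPKM in baboACT, against 4.03 in MhcGal4 (-2.81). Cyp4d20 had 5.59 FPKM in baboACT and 17.0 in MhcGal4 (-1.61). Cyp4s3 had 0.781 FPKM in baboACT and 1.78 in MhcGal4 (-1.19, q = 0.00778 in the authors' deposited table).

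The row Cyp4ac2,Cyp4ac3, whose reads cannot be told apart, fell to 23.2 FPKM in baboACT, against 48.5 in MhcGal4 (-1.06, q = 0.000411 in the authors' deposited table). All 4 measured Cyp4d genes fell with activated Baboon, among them Cyp4d14, which was under the floor in the smox experiment. Cyp4d1 had 3.19 FPKM in baboACT and 6.51 in MhcGal4 (-1.03). Cyp4d14 had 2.33 FPKM in baboACT and 3.93 in MhcGal4 (-0.75), and Cyp4d2 had 4.88 FPKM in baboACT and 6.86 in MhcGal4 (-0.49, q = 0.000953 in the authors' deposited table). Cyp4p3 fell to 11.1 FPKM in baboACT, against 15.7 in MhcGal4 (-0.50, q = 0.000782 in the authors' deposited table). The rises were those of Cyp4e2, with 19.0 FPKM in baboACT and 13.4 in MhcGal4 (0.50), and Cyp4c3, with 17.6 FPKM in baboACT and 13.2 in MhcGal4 (0.42). Cyp4e1, which rose strongly in smox, was not called here, with 6.536 FPKM in baboACT and 6.34 in MhcGal4 (q = 0.813 in the authors' deposited table), and Cyp4ac1 and Cyp4ae1 were not called either. With a pseudocount of 1 FPKM the log2 fold change was -2.97 for Cyp4p2 and -1.67 for Cyp4e3.

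Among Cyp6 genes 6 of 13 measured rows fell and 2 rose with activated Baboon. Cyp6a2 had 1.07 FPKM in baboACT and 8.13 in MhcGal4 (-2.93), and Cyp6d2 had 0.854 FPKM in baboACT and 4.77 in MhcGal4 (-2.48). Cyp6g2, a gene of the corpus allatum, had 1.82 FPKM in baboACT and 3.48 in MhcGal4 (-0.93). The falls of Cyp6a23 (-0.62), Cyp6a9 (-0.48) and Cyp6a21 (-0.34, q = 0.0198 in the authors' deposited table) were smaller. Cyp6a13 rose to 8.37 FPKM in baboACT, against 2.15 in MhcGal4 (1.96), and Cyp6w1 to 5.38 FPKM in baboACT, against 2.97 in MhcGal4 (0.86). Cyp6d4, Cyp6d5, Cyp6v1 and the row CG30157,Cyp6u1 were not called. Cyp6t3, which has a part in ecdysone synthesis, was not called either, with 2.08 FPKM in baboACT and 1.40 in MhcGal4 (q = 0.265 in the authors' deposited table).

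Cyp9c1 and Cyp9f2 fell and Cyp9b2 rose with activated Baboon. Cyp9c1 had 44.7 FPKM in baboACT and 76.7 in MhcGal4 (-0.78). Cyp9f2 had 11.5 FPKM in baboACT and 16.8 in MhcGal4 (-0.55). Cyp9b2 had 30.3 FPKM in baboACT and 13.7 in MhcGal4 (1.15). Cyp9h1 was not called, nor was any of the 3 measured Cyp28 genes. Cyp28a5 had 34.4 FPKM in baboACT and 31.9 in MhcGal4 (q = 0.245 in the authors' deposited table).

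Of 6 measured mitochondrial rows 4 rose and 1 fell in baboACT, with a median of 0.62. Beside them, 29.1% of all measured rows rose and 14.7% fell in baboACT, with a median of 0.08. Cyp12e1 had 35.9 FPKM in baboACT and 20.3 in MhcGal4 (0.82), and Cyp12b2 had 14.3 FPKM in baboACT and 9.54 in MhcGal4 (0.58). Cyp49a1 had 3.38 FPKM in baboACT and 1.32 in MhcGal4 (1.36). Cyp301a1 had 2.43 FPKM in baboACT and 1.53 in MhcGal4 (0.67, q = 0.014 in the authors' deposited table). Cyp12a5 fell to 6.43 FPKM in baboACT, against 8.18 in MhcGal4 (-0.35, q = 0.00581 in the authors' deposited table). Cyp12a4 was not called, with 4.59 FPKM in baboACT and 4.64 in MhcGal4 (q = 0.951 in the authors' deposited table). Whether these 6 rows differ from the other families was not tested.

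Cyp18a1 had 35.2 FPKM in baboACT and 54.6 in MhcGal4, a fall of 0.63 on the log2 scale. EcR stood at 49.6 FPKM in baboACT and 34.9 in MhcGal4, a rise of 0.51. The 6 glue genes summed to 2098 FPKM in baboACT and 52.7 in MhcGal4, and all 6 rose. Among the small families Cyp318a1 had 1.38 FPKM in baboACT and 3.04 in MhcGal4 (-1.14), Cyp312a1 had 11.3 FPKM in baboACT and 15.2 in MhcGal4 (-0.44), and Cyp310a1 had 0.831 FPKM in baboACT and 2.01 in MhcGal4 (-1.28), just inside the threshold (q = 0.0495 in the authors' deposited table). Cyp313b1 rose to 57.5 FPKM in baboACT, against 51.2 in MhcGal4 (0.17, q = 0.0345 in the authors' deposited table). Cyp304a1, the gene with the largest rise in smox, was listed at 0.490 FPKM in baboACT and 3.91 in MhcGal4 and was not called in the authors' deposited table (q = 0.346). Below the floor, the authors' table also called Cyp311a1, with 1.497 FPKM in baboACT and 0.344 in MhcGal4, and Cyp4g15, with 0.416 FPKM in baboACT and 0.773 in MhcGal4 (q = 0.0283).

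The experiments share no libraries, so members could be read side by side. Of 41 P450 rows measured in both, 23 were called in both, and 17 of these went in opposite directions. That share of 73.9% is near the 79.8% found for all 2429 rows called in both. The direction of the opposite calls differed, which largely restates the counts given above. Most P450 calls were rises in smox and falls in baboACT, and most calls over all rows were the reverse. Of the 17 P450 rows 14 were higher in smox and lower in baboACT, or 82.4%, whereas among all 1938 rows with opposite calls 434 took that direction, or 22.4%. Across the 41 members the log2 fold changes of the experiments had a Pearson correlation of -0.52, beside -0.23 across all 7768 rows measured in both. The 41 include Cyp304a1, which had the largest change in smox (7.24). That gene was not called in baboACT, with 0.490 FPKM, against 3.91 in MhcGal4. The value of -0.52 may rest in part on this row, and no correlation without it was computed. These shares and correlations are descriptions across genes, which are not independent replicates.

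**Figure D3:**
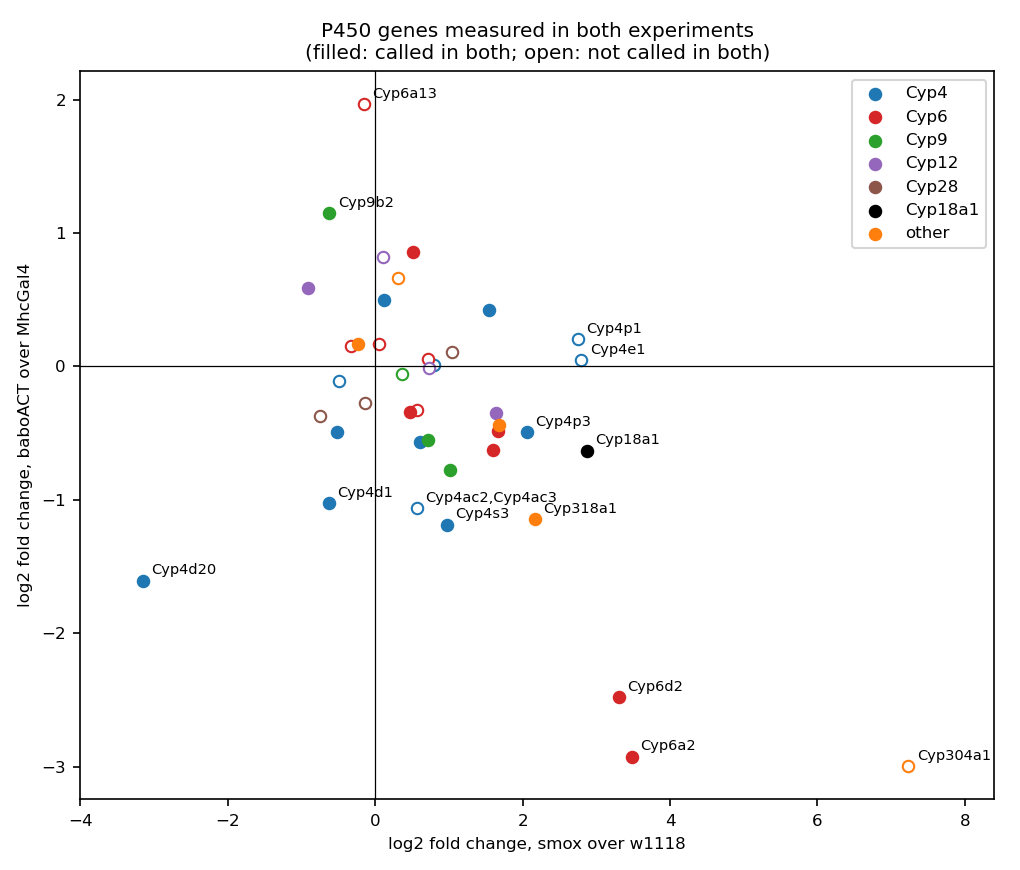
Log2 fold change of smox over w1118 (horizontal) and of baboACT over MhcGal4 (vertical) for the 41 P450 rows measured in both experiments, colored by family, filled where called in both. The lower right holds Cyp6a2, Cyp6d2 and Cyp18a1 among 14 rows called higher in smox and lower in baboACT, and Cyp4d1, Cyp4d2 and Cyp4d20 lie at the lower left, Cyp4d20 farthest out.

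The 14 rows with that pattern came from several families: Cyp4g1, Cyp4p3 and Cyp4s3, Cyp6a2, Cyp6a9, Cyp6a21, Cyp6a23 and Cyp6d2, Cyp9c1 and Cyp9f2, Cyp12a5, Cyp18a1, Cyp312a1 and Cyp318a1. The pattern was steepest in Cyp6a2, which was 11.2-fold higher in smox than in w1118 and 7.60-fold lower in baboACT than in MhcGal4. For Cyp6d2 the folds were 9.88 and 5.58. These folds rest on low values: Cyp6a2 had 0.901 FPKM in w1118 and 1.07 in baboACT, and Cyp6d2 1.13 and 0.854. With a pseudocount of 1 FPKM the log2 fold changes in smox were 2.54 for Cyp6a2 and 2.51 for Cyp6d2. In baboACT they were -2.14 and -1.64. The reverse, lower in smox and higher in baboACT, held for Cyp9b2, Cyp12b2 and Cyp313b1. Cyp4c3, Cyp4e2 and Cyp6w1 were higher in both, and Cyp4d1, Cyp4d2 and Cyp4d20 lower in both.

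P450 genes often lie in tandem arrays, and 41 rows fell into 13 groups of loci within 20 kb of each other. In smox 6 of these groups had at least 2 called members, in baboACT 3, and only these could hold calls in both directions. Of them 0 did within an experiment. Most P450 calls went 1 way within each experiment, and no share for neighboring genes in general was computed. The largest group, on 2R from 10759178 to 10788556, holds 9 rows from Cyp6a22 to Cyp317a1. Its 3 measured members Cyp6a23, Cyp6a9 and Cyp6a21 rose in smox and fell in baboACT, while the 6 rows between and beside them stayed under 1 FPKM in all 4 groups. Cyp6a9 and Cyp6a19 share 1 locus in the tables. A group on chromosome X, bases 2053176 to 2075033, with Cyp4d1, Cyp4d14, Cyp4d2 and Cyp4ae1, had 2 falls among 3 measured rows in smox and 3 falls among 4 in baboACT. Members of such arrays are similar in sequence, and reads shared between copies could be divided unevenly.

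**Figure D4:**
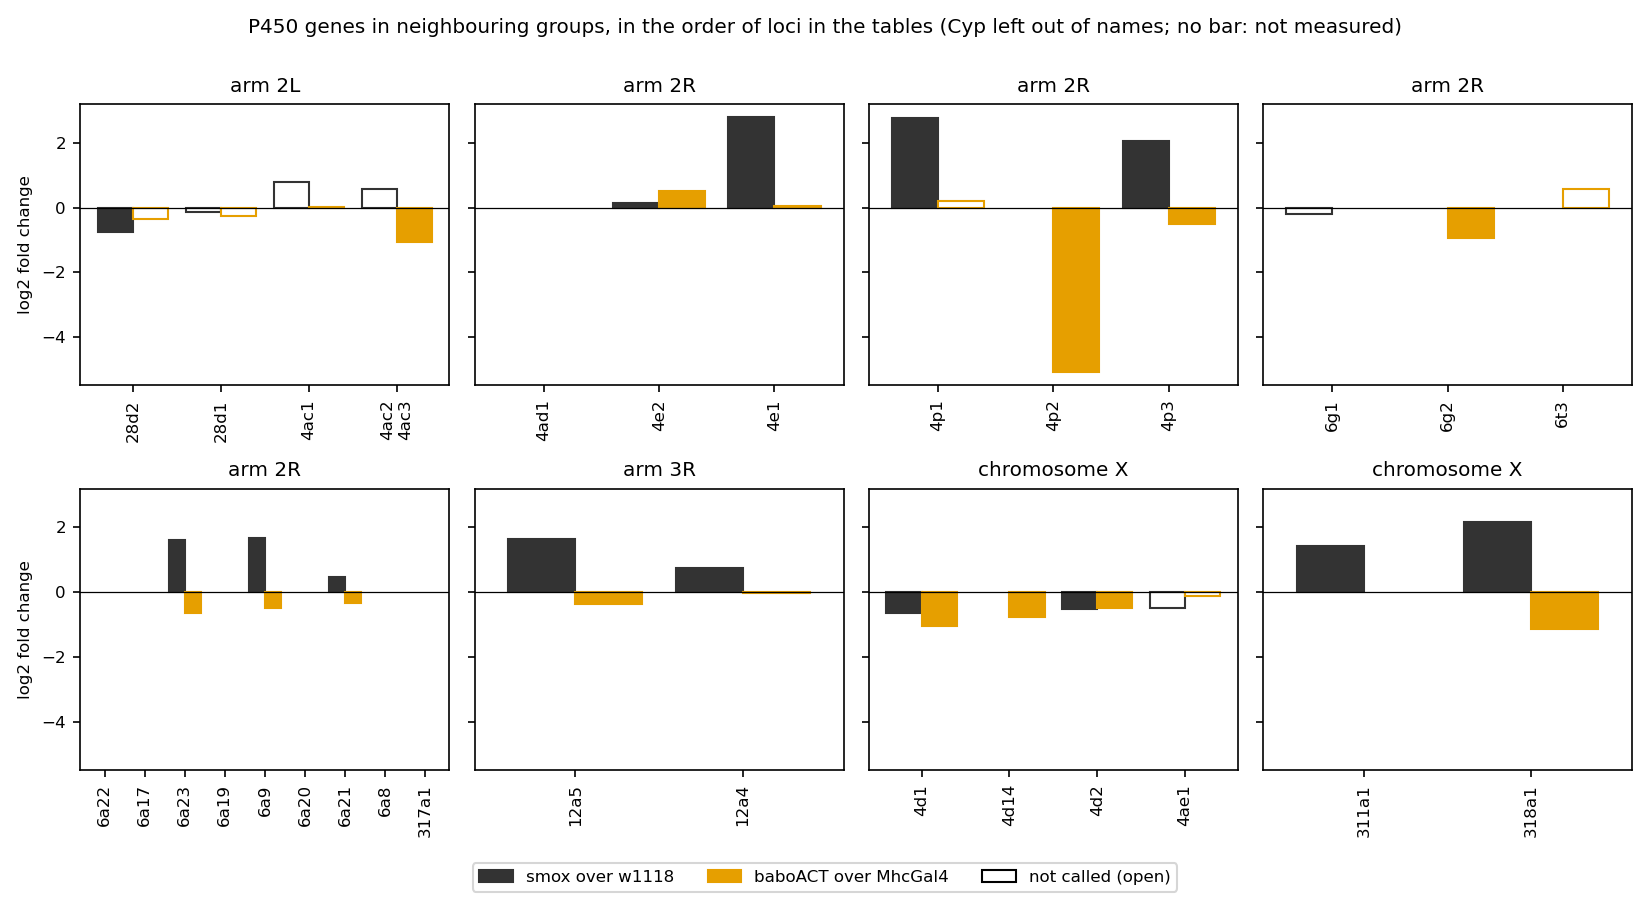
Log2 fold changes of P450 genes in the 8 groups of neighboring loci with at least 2 measured rows in an experiment, smox over w1118 (dark) and baboACT over MhcGal4 (orange), open where not called and with no bar where not measured. Called bars of 1 color point the same way within each group, as with Cyp6a23, Cyp6a9 and Cyp6a21, though several groups hold only 1 called bar of a color.

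Because smox larvae were male and the sex of w1118 is not given, members on the X chromosome were also read apart. In smox 5 of 9 measured X-linked members rose and 2 fell, beside 22 and 6 of 37 elsewhere. Over all measured rows on the X chromosome 16.2% rose and 40.2% fell in smox. In baboACT 7 of 9 X-linked members fell and 0 rose by the authors' q, beside 16 and 10 of 39 elsewhere. Over all measured rows on the X chromosome 25.5% rose and 16.8% fell in baboACT. Of the 7 X-linked falls in baboACT, 3 lie in the group of neighbors with Cyp4d1, Cyp4d14 and Cyp4d2.

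Cpr, the NADPH reductase that supplies microsomal P450s with electrons, rose to 93.5 FPKM in smox, against 61.0 in w1118 (0.62). It fell to 73.0 FPKM in baboACT, against 84.7 in MhcGal4 (-0.21, q = 0.036 in the authors' deposited table). Of 7 measured electron donor rows 1 rose and 3 fell in smox, and 2 rose and 1 fell in baboACT. These counts are near the shares over all measured rows, which were 18.4% rising and 39.8% falling in smox and 29.1% rising and 14.7% falling in baboACT. The row CG18335,dare,fbl6, which holds the adrenodoxin reductase gene of the mitochondrial chain together with overlapping genes, stood at 18.0 FPKM in smox and 20.5 in w1118 (-0.18, q = 0.0044 in the authors' deposited table). The same row had 18.7 FPKM in baboACT and 14.3 in MhcGal4 (0.39).

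Alas, which encodes the first enzyme of heme synthesis, rose to 50.2 FPKM in smox, against 36.3 in w1118 (0.47), and fell to 45.8 FPKM in baboACT, against 56.7 in MhcGal4 (-0.31). Of the 8 measured heme synthesis genes 4 rose and 1 fell in smox, and 3 rose and 1 fell in baboACT. The shares over all measured rows were 18.4% rising and 39.8% falling in smox. In baboACT they were 29.1% rising and 14.7% falling, and the heme counts there are near them. Ho, the heme oxygenase gene that breaks heme down, had 29.0 FPKM in smox and 40.0 in w1118 (-0.46), and 65.3 FPKM in baboACT and 34.9 in MhcGal4 (0.90).

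Of 14 measured regulators of detoxification and hormone response 2 rose and 6 fell in smox, and 5 rose and 0 fell by the authors' q in baboACT. The smox counts and the rises in baboACT are near the shares over all measured rows (18.4% rising and 39.8% falling in smox, 29.1% rising in baboACT), so they are no result about these regulators. The gene cnc, which encodes the Nrf2-like activator of detoxification genes, had 56.7 FPKM in smox and 83.2 in w1118 (-0.55), and 99.1 FPKM in baboACT and 74.6 in MhcGal4 (0.41). Its partner maf-S had 29.9 FPKM in smox and 36.9 in w1118 (-0.31, q = 0.00188 in the authors' deposited table), and 59.2 FPKM in baboACT and 43.7 in MhcGal4 (0.44). Hr96, a xenobiotic-sensing nuclear receptor gene, fell to 5.61 FPKM in smox, against 6.67 in w1118 (-0.25, q = 0.00796 in the authors' deposited table), and was not called in baboACT (9.76 FPKM, against 8.90 in MhcGal4). Transcript level is not activity for these factors.

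Genes of ecdysone synthesis include P450s with mutant names, among them shd, whose product turns ecdysone into its active form outside the prothoracic gland. Of 6 measured genes of the synthesis list 1 rose and 0 fell in smox by the authors' q, and of 7 measured in baboACT 2 rose and 3 fell. The rises are near the shares over all measured rows, 18.4% in smox and 29.1% in baboACT. The falling shares there were 39.8% in smox and 14.7% in baboACT. The gene shd had 18.7 FPKM in smox and 14.9 in w1118 (0.33), and 19.4 FPKM in baboACT and 6.43 in MhcGal4 (1.60). Of 5 measured prothoracic gland markers 1 rose and 3 fell in baboACT. The rise was that of sro, with 22.1 FPKM in baboACT and 11.7 in MhcGal4 (0.92). In smox sro was not called, with 40.8 FPKM against 39.7 in w1118 (q = 0.582 in the authors' deposited table). The falls in baboACT were in phm, sad and nvd. The gene phm had 0.202 FPKM in baboACT and 7.60 in MhcGal4 (-5.23), sad had 1.24 FPKM in baboACT and 5.31 in MhcGal4 (-2.09), and nvd had 0.226 FPKM in baboACT and 2.88 in MhcGal4 (-3.67, q = 0.0108 in the authors' deposited table). Larvae of the smox group had 2.10 FPKM of phm, against 0.0232 in w1118, and 3.53 FPKM of spok, against 0.0229 in w1118, neither of them called (q = 0.324 and 0.25 in the authors' deposited table). The 5 measured prothoracic gland markers are all genes of this list, so they give no separate reading of that gland.

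Other detoxifying enzymes were set beside the P450s. Of 5 measured UDP-glycosyltransferase genes 4 rose and 1 fell in smox, and 0 rose and 2 fell in baboACT by the authors' q. Ugt37c1 had 19.2 FPKM in smox and 6.49 in w1118 (1.57), and Ugt35a had 21.4 FPKM in baboACT and 35.3 in MhcGal4 (-0.72). Rows named Gst, for glutathione transferases, had 8 of 15 rising and 4 falling in smox, and 6 of 12 rising and 0 falling in baboACT by the authors' q. Beside both lists, 18.4% of all measured rows rose and 39.8% fell in smox, and 29.1% rose and 14.7% fell in baboACT.

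Transcripts that mark other tissues moved in the same experiments. Beside the marker counts here and below, 18.4% of all measured rows rose and 39.8% fell in smox. In baboACT 29.1% rose and 14.7% fell. Fat body markers, a tissue rich in P450s, rose in 5 of 7 cases and fell in 2 in smox, and summed to 1951 FPKM in smox and 952 in w1118. In baboACT 1 of 7 rose and 4 fell, with sums of 771 FPKM in baboACT and 1443 in MhcGal4, and 0 of the 7 was listed at 0 in any group. Oenocyte markers, Cyp4g1 not among them, rose in 5 of 7 cases and fell in 0 in smox by the authors' q, with sums of 348 FPKM in smox and 218 in w1118. In baboACT 1 of 7 rose and 2 fell, with sums of 265 FPKM in baboACT and 270 in MhcGal4. Their part in the P450 results was not tested. In such bulk samples fewer cells of a type and less RNA per cell cannot be told apart.

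Of 6 measured midgut genes 0 rose and 5 fell in smox, with sums over 11 rows of 52.5 FPKM in smox and 437 in w1118. In baboACT 0 rose and 2 fell by the authors' q, with sums of 124 FPKM in baboACT and 381 in MhcGal4, and Amy-p was listed at 0 in all 4 groups. Of 2 measured Malpighian tubule markers 1 rose in smox and neither was called in baboACT. The markers summed over 9 rows to 24.2 FPKM in smox and 23.5 in w1118, and to 20.4 FPKM in baboACT and 19.8 in MhcGal4. Uro, the urate oxidase gene that defines that organ, had 0.119 FPKM in smox and 0.208 in w1118, and 0.347 FPKM in baboACT and 0.203 in MhcGal4. Muscle markers were abundant in all 4 groups, with sums of 26540 FPKM in smox and 25784 in w1118, and of 25408 FPKM in baboACT and 33799 in MhcGal4. Of 7 measured muscle genes 4 rose and 1 fell in smox and 6 fell in baboACT, while Act57B was listed at 0 in all 4 groups. Cuticle protein genes, read as epidermal markers, rose in 15 and fell in 20 of 42 measured rows in smox, and rose in 23 and fell in 5 of 42 in baboACT. Among them Lcp1 was listed at 0 in smox and w1118, but at 45953 FPKM in baboACT and 32967 in MhcGal4. A listed 0 is therefore not read as absence, for Act57B or for P450 rows.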

How the data were processed

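RNA of larval carcasses in 12 libraries, 3 in each of 4 groups, was sequenced from TruSeq libraries, per the labels' protocols. Cufflinks and Cuffdiff are named in the submitters' processing notes with no version. The sources used here give no aligner, genome build, annotation, strand setting or read number. The authors deposited 1 FPKM per group and gene, a log2 fold change (with spreadsheet error text in 423 cells of the smox table and 480 of the baboACT table), a test statistic, which is a score, and a p-value with its q-value, per the file headers. The lowest p was 5e-05.

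Log2 ratios were computed here from the deposited FPKM with no pseudocount (Python 3.11.15, pandas 2.3.3). The largest gap to the deposited log2 column was 0.04 for smox and 0.0041 for baboACT among rows averaging 1 FPKM or more. No test of differences between libraries could be run, so limma was not used and the authors' q was. The counting steps were tested on simulated data.

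The members, gene lists and alternatives were chosen with earlier results of these data known, from general knowledge of fly genes. Values were given for members called with a log2 change of at least 1 in either experiment, for the most abundant member of each family and for Cyp18a1. Other members were given by value, range or count, with no fixed rule. The Cyp names were matched to RefSeq symbols, and list genes missing from the tables by symbol were sought by synonym. Loci come from the tables, with 1 added to each start, because starts there count from 0. On 2R the commonest offset of locus ends from BDGP6 was -4112495 bases, so that build gave no coordinates. A locus can span several genes. Promoter and protein sequences were not analysed here.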

Additional observations from a re-analysis of the deposited data

How the results depend on the processing

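Of 74 recomputed counts and medians over the P450 genes, counts of families among them, 66 stayed within 1.5 times the reported value. Some could not move that far: total calls do not depend on centering, and leaving out rows naming several genes removed few rows. No median changed sign, and a count has no sign to change. A floor of 5 FPKM on the mean left 4 falls in smox, and 20 calls with 13 falls in baboACT. Counting only changes of at least 1 on the log2 scale left 19 calls with 1 fall in smox, and 13 calls with 3 rises and 10 falls in baboACT. Some alternatives were chosen after seeing the data. A floor on the mean FPKM of the other experiment gave 24 rises of 46 rows in smox and 18 falls of 44 in baboACT. That floor does not use the values compared, but rows still had to be tested by the authors and above 0 in both compared groups. Rises in smox and falls in baboACT were 24 and 18 without shared loci, and 22 and 16 without the X chromosome. They were 27 and 23 with the direction centered. Of 62 fold changes of named genes, a pseudocount of 1 FPKM moved 18 by more than 1.5 times. A pseudocount always shrinks a fold change and cannot reverse it. Centering on the median of all measured rows moved 7, and among called genes it reversed no direction. No paired analysis was possible because the tables hold group values only, and for the same reason no replicate could be left out. Depth is not known from FPKM, so rows under 1 FPKM allow no statement that a gene is off.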

Other observations

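Genes of juvenile hormone turnover, whose epoxide hydrolases work beside P450s on small lipids, were measured in 3 cases. Jheh2 had 113 FPKM in smox and 65.5 in w1118 (log2 fold change 0.79), and Jheh3 had 9.14 FPKM in smox and 18.1 in w1118 (-0.99). In baboACT Jheh3 fell to 16.7 FPKM, against 19.4 in MhcGal4 (-0.21, q = 0.0419 in the authors' deposited table), and Jheh2 was not called. The row Cyt-b5-r, a gene for a cytochrome b5-related protein, had 0.831 FPKM in smox and 3.99 in w1118 (-2.26), and 2.53 FPKM in baboACT and 2.42 in MhcGal4 (q = 0.834 in the authors' deposited table).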
